A study of Mus musculus with 12 samples.

Results

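Described here are 8 genes whose products act as brakes on signalling through ERK and through heterotrimeric G proteins: the dual-specificity phosphatases Dusp1, Dusp4 and Dusp6, the Sprouty and Spred genes Spry2, Spry4 and Spred1, and the regulators of G-protein signalling Rgs2 and Rgs4. They were found as all probe sets annotated to exactly 1 of these symbols, which gave 24 probe sets for the 8 genes, out of 18193 genes and 45101 probe sets on the array. Of these 24 probe sets, 17 had signal above 4 (log2) in at least 3 of the 12 arrays and were tested, and all 8 genes had at least 1 tested probe set. The probe set with the highest mean over the 12 arrays is called a gene's leading probe set, and values are of this one unless another is named. Every level is a log2 intensity made with GCRMA, and every difference is a difference of such values, so that 1 unit is a doubling. Levels of different probe sets are not on a common scale and are not set against each other.

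Expression was measured in primary cultures of cerebellar granule cells, the small excitatory neurons of the cerebellum, prepared at postnatal day 7 from lethargic mice on the 129/SvJ background. Lethargic mice carry a mutation in Cacnb4, a gene for an auxiliary subunit (β4) of voltage-gated calcium channels, and all 4 groups share it. Lentivirus was applied for 12 h directly after plating and carried the splice variant β4a, β4b or β4e of the subunit, or eGFP as the control; the construct names all have the prefix βA, which the labels do not spell out. All cultures received the antimitotic drug Ara-C, and RNA was taken after 9 days in vitro. No group of cultures from mice with an intact Cacnb4 gene and no culture without virus was compared here. Each group had 3 arrays, numbered 1 to 3 in every group, and the labels do not say whether these were separate cultures, mice or days, so p-values measure only the spread between these arrays. In each comparison the variants share the same 3 eGFP arrays.

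ERK is switched on by phosphorylation at the end of the Ras, Raf and MEK cascade, and in neurons it responds to growth factors and to calcium entry. Its activity induces genes that turn the pathway off again: dual-specificity phosphatases remove the activating phosphates from MAP kinases, and Sprouty and Spred proteins act upstream, between receptor and Raf. RGS proteins shorten G-protein signals by speeding up the hydrolysis of GTP on the α subunit. Transcripts of several of these brakes are known to rise quickly after neuronal activity, with CREB bound to cAMP response elements (CRE) among the factors involved.

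Promoter sequences are shown for 4 of the genes. Dusp1, Rgs2 and Rgs4 hold a CRE or its core in the window, and Dusp6 holds none of the motifs searched. Spry2 and Spred1 hold none of them either and are not shown. Whether these motifs bear on the levels was not tested. The 250 bases before the annotated start were read from RefSeq sequences of the build GRCm38.p6, in which 6 of the 8 genes were matched. Capitals mark matches to the CRE (TGACGTCA) or its core (TGACG), searched on both strands, so that a core on the other strand reads CGTCA, and a full CRE contains 2 overlapping cores.
Dusp1, chr17:26508473-26508722, minus strand: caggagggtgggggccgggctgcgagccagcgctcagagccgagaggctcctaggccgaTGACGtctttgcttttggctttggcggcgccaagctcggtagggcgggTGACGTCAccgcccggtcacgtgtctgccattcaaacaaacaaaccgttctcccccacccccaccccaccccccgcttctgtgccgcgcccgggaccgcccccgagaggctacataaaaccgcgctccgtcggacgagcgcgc
Dusp6, chr10:99262981-99263230, plus strand: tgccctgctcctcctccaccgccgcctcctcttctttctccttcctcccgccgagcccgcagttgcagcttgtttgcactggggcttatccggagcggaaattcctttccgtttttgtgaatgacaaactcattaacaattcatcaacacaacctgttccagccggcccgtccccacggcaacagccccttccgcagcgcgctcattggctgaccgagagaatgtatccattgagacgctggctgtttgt
Rgs2, chr1:144004150-144004399, minus strand: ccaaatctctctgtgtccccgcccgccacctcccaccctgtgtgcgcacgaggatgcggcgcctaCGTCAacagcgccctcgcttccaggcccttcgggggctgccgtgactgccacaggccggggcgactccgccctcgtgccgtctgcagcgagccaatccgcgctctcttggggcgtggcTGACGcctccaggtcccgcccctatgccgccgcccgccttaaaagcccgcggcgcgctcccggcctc
Rgs4, chr1:169747643-169747892, minus strand: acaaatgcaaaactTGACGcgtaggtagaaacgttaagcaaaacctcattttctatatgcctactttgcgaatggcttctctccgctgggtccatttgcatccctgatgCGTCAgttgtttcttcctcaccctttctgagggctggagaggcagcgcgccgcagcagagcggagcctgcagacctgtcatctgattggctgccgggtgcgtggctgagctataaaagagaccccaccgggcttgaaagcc

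The full CRE of Dusp1 lies at -143 to -136 from the start, with a further core at -191 to -187. Rgs2 has cores at -185 to -181 and -67 to -63, and Rgs4 at -236 to -232 and -141 to -137. Of 32851 promoter windows of the same length, 1.55% hold the full CRE and 17.8% the core, so a core alone is common. The windows of Dusp6, Spry2 and Spred1 hold neither. None of the 6 windows holds the AP-1 motif TGANTCA (in 6.75% of all windows), the ETS motif CCGGAAG (6.91%), the Egr motif GCGTGGGCG (0.536%) or its shorter form GNGTGGGCG (2.57%), or the CArG box of SRF (1.47%). A match describes the letters in a window and is not a measured binding site, and the lack of one says only that these letters are not in this window.

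Over the 23044 tested probe sets, replicate number accounted for 76.0% of the sum of squares between arrays and group for 10.5%. Shares of all probe sets given below are likewise shares of these 23044. Array medians lay between 3.84 and 3.90. The 3′ minus 5′ difference of the control probe sets ran from 0.82 to 1.09 for Actb and from -0.05 to 0.40 for Gapdh. The eGFP arrays held the granule cell marker Gabra6 at 13.80 ± 0.087 (SD, n = 3). The 3 tested probe sets of Cacnb4 differed from eGFP by -0.36 to 0.44 in the variants and none passed the test; whether they lie within the sequence carried by the virus is not given in the sources used here, so they do not check the labels.

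The members by group can be put in brief. Dusp6 was 2.52-fold higher with β4a and 2.27-fold higher with β4b than with eGFP, with no overlap between the arrays. Of all probe sets, 2.87% with β4a and 3.64% with β4b likewise had all arrays above all eGFP arrays. Dusp1 averaged 5.40-fold higher with β4a and 3.49-fold higher with β4b, but only in replicates 1 and 2. Dusp4 averaged 3.74-fold higher with β4a, with log2 differences of 4.29, 1.37 and 0.05 in replicates 1 to 3. Rgs4 was above eGFP in 9 of 9 differences within a replicate number, by 1.48-fold to 1.64-fold on average. These 9 share 3 eGFP arrays, and in replicate 3 the values with eGFP, β4a and β4e lay below 4. A second tested probe set was below eGFP in replicate 3 with β4b (-0.08) and β4e (-0.11). Of all probe sets, 19.1%, 22.9% and 15.3% were above eGFP in all 3 numbers with β4a, β4b and β4e, and the share above in all 9 was not counted. Spry2, Spry4 and Rgs2 stood above their eGFP partner by more than 1 unit in 1 array only, β4a replicate 1, and Spred1 stood higher with β4a in replicates 1 and 3. None of these differences passed limma's test with Benjamini-Hochberg adjustment over 23044 probe sets at 0.05, with or without the replicate number as a block. Of the 8 leading probe sets, 7 had their highest group mean with β4a, Rgs4 being the exception, against 23.0% of all probe sets.

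**Figure D1:**
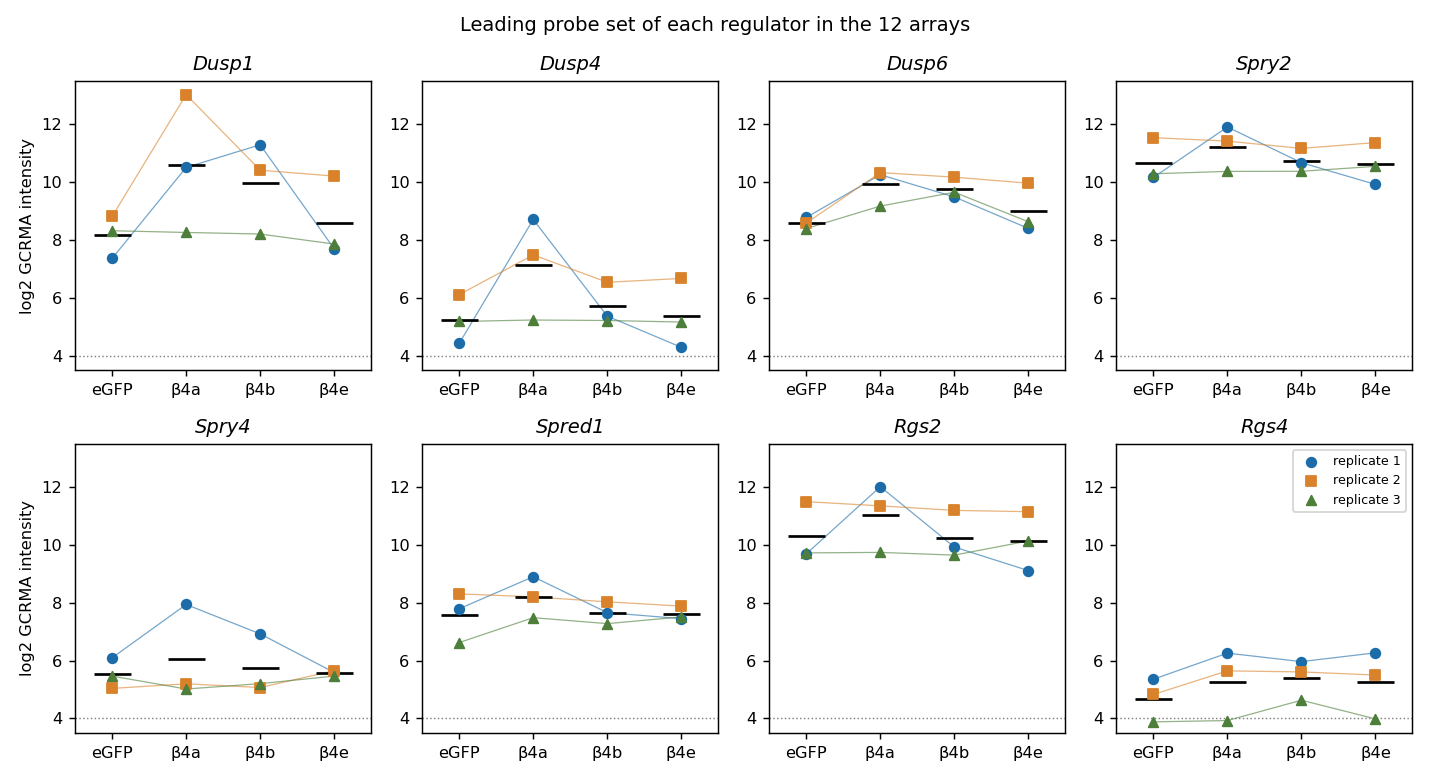
Levels of the leading probe set of each gene (log2 GCRMA intensity, y axis) in the 4 groups (x axis). Points are single arrays, coloured and shaped by replicate number and joined within a number, black bars are group means (n = 3), and the dotted line is the level of 4 used as the filter. Dusp6 with β4a and β4b lies above all 3 eGFP arrays, as do 2.87% and 3.64% of all tested probe sets. The highest value of Dusp4, Spry2, Spry4, Spred1 and Rgs2 is that of β4a replicate 1.

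Dusp1, a nuclear phosphatase that acts on p38, JNK and ERK and is itself an immediate-early gene, had the widest range, from 7.36 to 13.03. Its level was 7.36, 8.82 and 8.32 in eGFP replicates 1 to 3 and 10.51, 13.03 and 8.26 with β4a. With β4b it was 11.30, 10.42 and 8.21, and with β4e 7.70, 10.21 and 7.86. In replicates 1 and 2 both β4a and β4b stood above eGFP, and in replicate 3 the 4 groups lay within 7.86 to 8.32. The difference of β4a from eGFP was 3.15, 4.21 and -0.06 within replicates 1 to 3, and that of β4b was 3.93, 1.60 and -0.11. β4e differed by 0.33, 1.39 and -0.46. The mean difference for β4a was 2.43 (SE 1.20 without the block, 0.82 with it), and limma's adjusted p was 0.9999 without the block and 0.239 with it. For β4b it was 1.80 (adjusted p 0.9999 and 0.266) and for β4e 0.42 (95% interval with the block -1.58 to 2.42). Replicate numbers took 36.5% of the sum of squares of Dusp1, groups 35.4% and the rest 28.1%.

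Dusp4, a nuclear phosphatase for ERK and JNK, was highest in β4a replicate 1. Its level was 4.43, 6.11 and 5.19 with eGFP and 8.71, 7.49 and 5.24 with β4a. It was 5.37, 6.54 and 5.22 with β4b and 4.29, 6.67 and 5.17 with β4e. β4a replicate 2, at 7.49, was the second highest of the 12 arrays, and the eGFP partner of β4a replicate 1 was the second lowest, both eGFP and β4e replicate 1 being close to the filter level. β4a differed from eGFP by 4.29, 1.37 and 0.05 within numbers, a mean of 1.90 (SE 0.88 without the block, 0.70 with it) with limma's adjusted p 0.9999 and 0.267. Without β4a replicate 1 the blocked difference was 0.75, with limma's unadjusted p 0.0450 and adjusted p 0.436. β4b differed by 0.94, 0.43 and 0.03, a mean of 0.47, and β4e by -0.13, 0.56 and -0.02. In replicate 3 the 4 groups of Dusp4 lay within 5.17 to 5.24.

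Dusp6, a cytoplasmic phosphatase with a strong preference for ERK and a standard readout of ERK output, differed in a steadier way. Its level was 8.78, 8.59 and 8.40 with eGFP, 10.26, 10.33 and 9.18 with β4a, 9.49, 10.18 and 9.65 with β4b, and 8.40, 9.97 and 8.63 with β4e. All β4a and all β4b arrays lay above all eGFP arrays, as for 2.87% and 3.64% of all probe sets. The β4e arrays overlapped those of eGFP and of both other variants. The group means were 9.92 ± 0.65 with β4a, 9.77 ± 0.36 with β4b, 9.00 ± 0.84 with β4e and 8.59 ± 0.19 with eGFP (SD, n = 3 each). Neighbours in this order lay within the larger of their SDs. Within numbers β4a was 1.48, 1.75 and 0.78 above eGFP and β4b 0.71, 1.59 and 1.26, while β4e differed by -0.38, 1.38 and 0.24. For β4a the difference was 1.33 (SE 0.43 without the block, 0.31 with it; 95% interval with it 0.58 to 2.09), with limma's unadjusted p 0.0105 and 0.00177 and adjusted p 0.9999 and 0.173. For β4b it was 1.18 (SE 0.43 and 0.31; 95% interval with the block 0.43 to 1.94), with adjusted p 0.9999 and 0.115. Both differences kept their direction with any 1 array left out, at 1.04 to 1.59 for β4a and 0.89 to 1.37 for β4b in the blocked fit, and the adjusted p stayed above the threshold in each. Groups took 58.2% of the sum of squares of Dusp6, the largest group share among the 8 leading probe sets.

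Spry2, which binds Grb2 and dampens receptor tyrosine kinase signals, stood at 10.17, 11.54 and 10.29 with eGFP and at 11.91, 11.42 and 10.38 with β4a. It stood at 10.68, 11.17 and 10.38 with β4b and at 9.93, 11.37 and 10.55 with β4e. Replicate 2 was high in every group, and in replicate 1 only the β4a array reached that height. The difference of β4a from eGFP was 1.75, -0.12 and 0.08 within numbers, a mean of 0.57 (SE 0.51; limma's adjusted p 0.9999, and 0.473 with the block) that fell to 0.02 in the blocked fit without β4a replicate 1. For β4b the mean was 0.07 (95% interval with the block -0.80 to 0.95) and for β4e it was -0.05 (-0.93 to 0.82). A second probe set of Spry2 had the same pattern, with β4a differences of 1.68, 0.28 and 0.07.

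Spry4, which acts on the same stretch of the pathway, had its high values in replicate 1. It stood at 6.10, 5.04 and 5.46 with eGFP, 7.94, 5.20 and 5.02 with β4a, 6.92, 5.07 and 5.20 with β4b, and 5.59, 5.65 and 5.46 with β4e. Only β4a and β4b replicate 1 lay clearly apart from the rest. β4a differed from eGFP by 1.84, 0.16 and -0.45 (mean 0.52, SE 0.74, limma's adjusted p 0.9999; 0.629 with the block), and without β4a replicate 1 the blocked difference turned to -0.13. β4b differed by 0.83, 0.03 and -0.26, and β4e by -0.51, 0.61 and 0.00028. The leading probe set of Spry4 rests on the EST BB080456, and the 3 other probe sets of the gene stayed below 4 in all 12 arrays and were not tested, so the signal of this gene rests on 1 probe set.

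Spred1, a membrane-bound inhibitor of Ras that recruits neurofibromin, stood at 7.79, 8.31 and 6.62 with eGFP and 8.90, 8.21 and 7.48 with β4a. With β4b it stood at 7.66, 8.03 and 7.28, and with β4e at 7.45, 7.88 and 7.51. The eGFP array of replicate 3 was the lowest of the 12, and all 3 variants lay above it by 0.86, 0.65 and 0.88. The mean difference of β4a was 0.62 (SE 0.45 without the block, 0.29 with it), with limma's adjusted p 0.9999 and 0.345. Those of β4b and β4e were 0.08 and 0.04, with blocked 95% intervals of -0.63 to 0.79 and -0.67 to 0.75. The 5 other tested probe sets of Spred1 were above eGFP with β4a in all 3 numbers, by a mean of 0.41 to 0.70. The largest of these, 0.70, came from a probe set with differences of 0.92, 0.17 and 1.01 and had limma's unadjusted p 0.00984 and adjusted p 0.223 with the block.

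Rgs2, which acts mainly on Gq, stood at 9.69, 11.50 and 9.73 with eGFP, 12.01, 11.35 and 9.74 with β4a, 9.93, 11.19 and 9.65 with β4b, and 9.11, 11.15 and 10.14 with β4e. As for Spry2, replicate 2 was high in all 4 groups, and β4a replicate 1 was the only other array at that height. The difference of β4a was 2.32, -0.15 and 0.02 within numbers, with a mean of 0.73 (SE 0.75; limma's adjusted p 0.9999, and 0.519 with the block). Without β4a replicate 1 it was -0.09 in the blocked fit. β4b differed by -0.05 (95% interval with the block -1.28 to 1.19) and β4e by -0.17 (-1.41 to 1.07). The 2 other tested probe sets gave β4a differences of 2.49 and 3.27 in replicate 1, of -0.43 and -0.16 in replicate 2, and of 0.03 and 0.70 in replicate 3.

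Rgs4, a regulator of Gi and Gq signals in neurons, stood at 5.36, 4.83 and 3.88 with eGFP, 6.26, 5.65 and 3.93 with β4a, 5.97, 5.61 and 4.63 with β4b, and 6.27, 5.50 and 3.98 with β4e. Its means by replicate number were 5.96, 5.40 and 4.11, and within each number the eGFP array was the lowest. The arrays of replicates 1 and 2 overlapped, since eGFP replicate 1 lay below the 3 variants of replicate 2. Replicate number took 84.2% of its sum of squares, groups 10.5% and the rest 5.30%. The differences within numbers were 0.90, 0.82 and 0.04 for β4a, 0.61, 0.78 and 0.75 for β4b, and 0.91, 0.67 and 0.10 for β4e. The group means were 5.40 ± 0.69 with β4b, 5.28 ± 1.21 with β4a, 5.25 ± 1.16 with β4e and 4.69 ± 0.75 with eGFP (SD, n = 3 each), none of them apart beyond that spread. For the mean of the 3 variants the difference was 0.62 (SE 0.59 without the block, 0.16 with it), with limma's unadjusted p 0.316 and 0.00336 and adjusted p 0.9997 and 0.141. It stayed between 0.53 and 0.78 in the blocked fit with any 1 array left out. Replicate 3 values near 4 are close to background, so the differences there are not exact. A second tested probe set gave 0.09, 0.87 and 0.21 for β4a, 0.14, 0.84 and -0.08 for β4b, and 0.17, 0.16 and -0.11 for β4e, and its blocked adjusted p for the mean of the variants was 0.406.

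**Figure D2:**
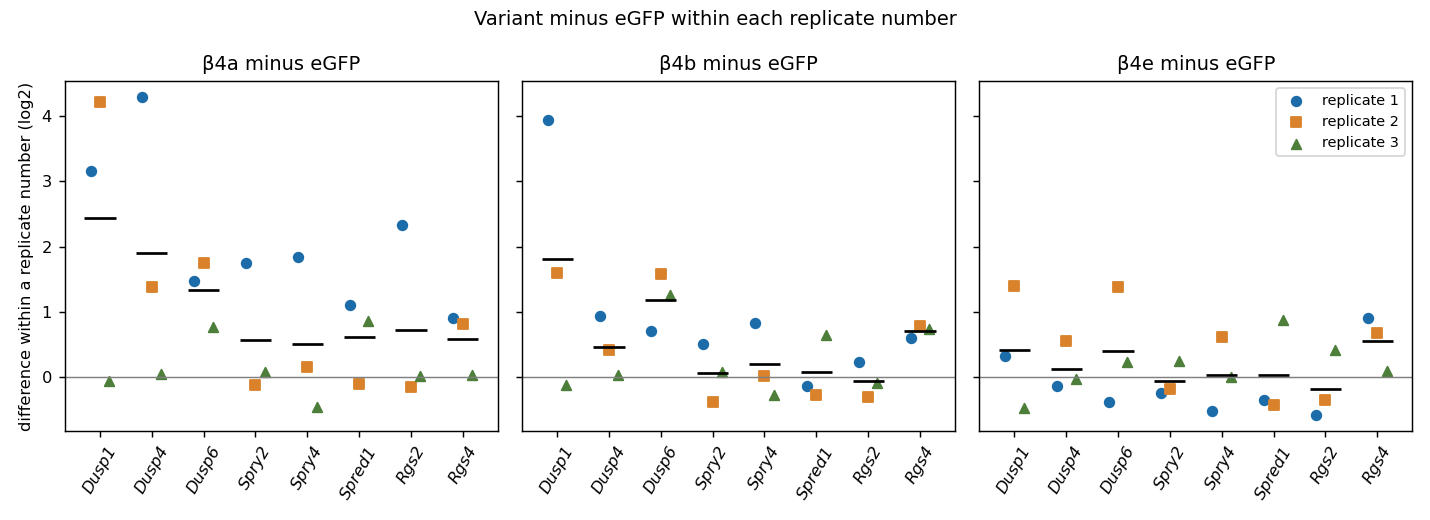
Difference of each variant from the eGFP array of the same replicate number (log2, y axis) for the leading probe set of the 8 genes (x axis). Points are the 3 replicate numbers and black bars their mean. Rgs4 is above 0 in all 9 differences, and with β4a the differences of Spry2, Spry4 and Rgs2 are above 1 in replicate 1 and below 0.2 in replicates 2 and 3.

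**Figure D3:**
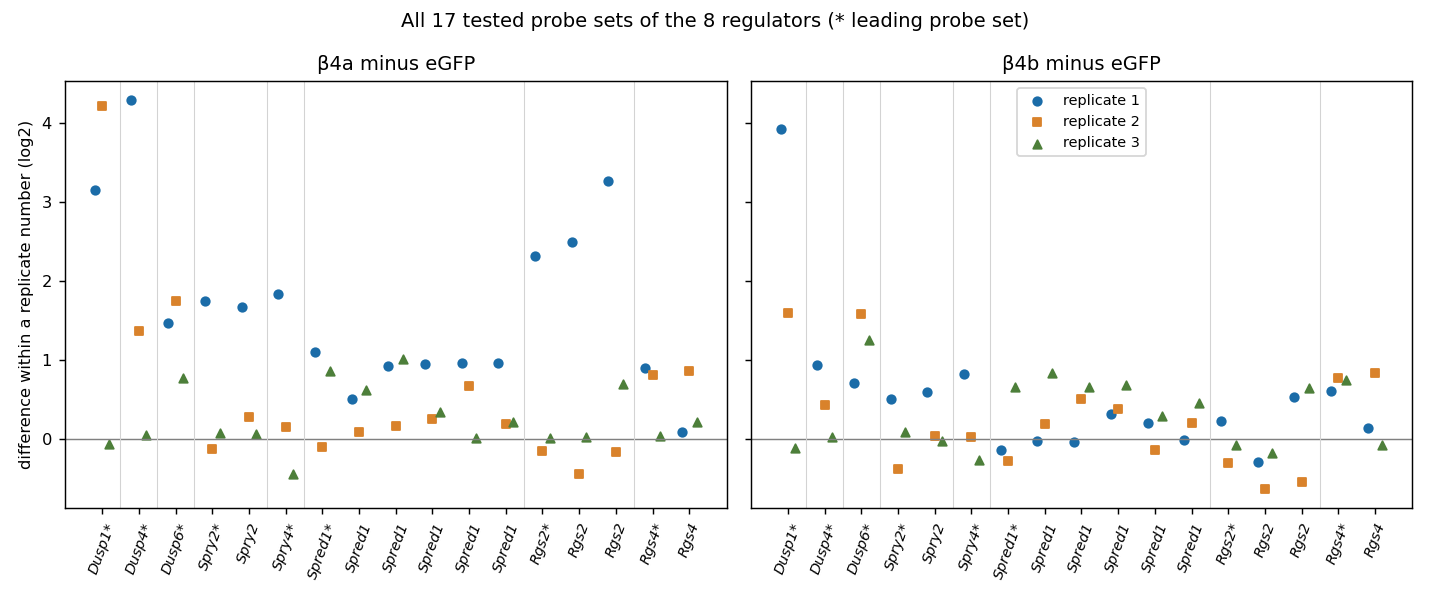
Differences from eGFP within replicate numbers (log2, y axis) for all 17 tested probe sets, grouped by gene with the leading one starred, for β4a on the left and β4b on the right. The 3 Rgs2 probe sets share a high β4a value in replicate 1, from 2.32 to 3.27, while the 2 Rgs4 probe sets differ in that number, at 0.90 and 0.09.

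These counts were read against those of all probe sets. At an adjusted p under 0.05, 0 of the 8 leading probe sets passed for β4a, β4b, β4e or the mean of the variants against eGFP, where without the block 0% of all probe sets passed in each. With the block again 0 members passed, against 0.0130% of all probe sets for β4a, 0.0130% for β4b, 0% for β4e and 0.0217% for the mean. At limma's unadjusted p under 0.05 and without the block, Dusp6 alone was higher with β4a (1.21% of all probe sets were), with β4b (2.17%) and for the mean (1.65%), and no member was with β4e (0.295%). With the block, 4 of 8 members were higher with β4a (Dusp1, Dusp4, Dusp6 and Rgs4; 8.21% of all probe sets), 2 with β4b (Dusp6 and Rgs4; 11.6%), 1 with β4e (Rgs4; 3.14%) and 3 for the mean (Dusp1, Dusp6 and Rgs4; 10.0%). With 1 array left out, the β4a count ran from 1, without eGFP replicate 1, to 5, without β4e replicate 3; it was 2 without eGFP replicate 2. Leaving out eGFP replicate 1 or 2 took the β4e count from 1 to 0. Above eGFP in all 3 numbers were Dusp4, Dusp6 and Rgs4 with β4a and with β4b, and Rgs4 with β4e, against 19.1%, 22.9% and 15.3% of all probe sets. All arrays of a variant lay above all eGFP arrays for 1 member with β4a and with β4b, Dusp6, and for 0 with β4e, against 2.87%, 3.64% and 1.40%.

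The median difference of the 8 genes from eGFP was 0.68 with β4a (8 of 8 above 0), 0.33 with β4b (7 of 8) and 0.09 with β4e (6 of 8). Over all tested probe sets it was 0.02, 0.03 and 0.01, with 54.4%, 55.0% and 53.3% above 0. The 3 replicate numbers did not contribute alike. For β4a the members' median was 1.79 in replicate 1, 0.49 in replicate 2 and 0.05 in replicate 3, and for β4b it was 0.66, 0.23 and 0.06. For β4e it was -0.29, 0.59 and 0.17, and in replicate 1 only Dusp1 and Rgs4 of the 8 lay above eGFP. In these cultures a lower share of one kind of cell and less RNA per cell cannot be told apart, which holds for every level given here.

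Between the variants, no member passed at an adjusted p under 0.05 in any pair, where 0% of all probe sets passed for β4a against β4b, β4a against β4e and β4b against β4e, without the block and with it (0%, 0% and 0%). β4a over β4e was 2.01 for Dusp1, 1.77 for Dusp4 and 0.92 for Dusp6, with limma's unadjusted p of 0.0350, 0.0321 and 0.0147 in the blocked fit and an adjusted p of 0.759 for each. These 3 of 8 members were past an unadjusted 0.05, as were 6.33% of all probe sets. β4b over β4e was 0.77 for Dusp6 (p 0.0330, adjusted p 0.690), 1 of 8 members against 7.11% of all probe sets. For β4a against β4b it was 0 of 8 against 2.69%, the largest difference being 1.44 for Dusp4 (95% interval with the block -0.29 to 3.16) and that of Dusp6 0.15 (-0.61 to 0.91). These intervals leave room for differences of more than 1 unit for Dusp4, so the members' levels are not shown to be alike with β4a and β4b.

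Replicate number separated these genes as it did most of the tested probe sets. In limma's F test of the number, 6 of 8 members passed at an adjusted p under 0.05, against 65.2% of all probe sets. They were Dusp1 (0.0336), Spry2 (0.0446), Spry4 (0.0201), Spred1 (0.0240), Rgs2 (0.0315) and Rgs4 (5.91e-05). Dusp6 (0.0595) and Dusp4 (0.119) did not pass. The numbers ranked differently by gene: Dusp1, Dusp4, Dusp6, Spry2, Spred1 and Rgs2 had their highest mean in replicate 2, and Spry4 and Rgs4 in replicate 1. Spry2 averaged 11.38 in replicate 2 against 10.67 and 10.40 in replicates 1 and 3, and Rgs2 averaged 11.30 against 10.19 and 9.81.

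After the mean of each replicate number was subtracted, all 28 pairs of members correlated positively over the 12 arrays, with r from 0.11 for Rgs2 and Rgs4 to 0.978 for Spry2 and Rgs2, while Spearman's rho was above 0 for 27. These points share 12 arrays and 1 normalization and are given as a description. Several of the high values rest on few arrays. Dusp4 and Spry2 correlated with r = 0.93 and with r = 0.58 once the 2 arrays farthest from the median of Dusp4, β4a and β4e replicate 1, were left out. Dusp4 and Spred1 went from 0.76 to 0.16 without the same 2 arrays, and Spry4 and Spred1 from 0.58 to -0.36. Spred1 and Rgs4 went from 0.11 to -0.28 without eGFP replicate 3 and β4a replicate 1, so 2 of the 28 pairs turned negative in this step. Spry2 and Rgs2 stood at 0.83 without β4a and β4e replicate 1, and Dusp1 and Dusp6, at 0.72, stood at 0.81 without β4a replicate 2 and β4b replicate 1.

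The genes whose pattern was most like that of a member were taken by the same centred r over 12 arrays, with no p. For Dusp1 they were Btg2, an antiproliferative immediate-early gene (r 0.984, Spearman's rho 0.965), and Rasl11b, a small GTPase of the Ras family (0.981, 0.930). For Dusp4 they were Fem1b, a substrate receptor of a ubiquitin ligase (0.984), and Mtus1 (0.979). Dusp6 was followed most closely by Stk39, a kinase that controls cation-chloride cotransporters (0.969, rho 0.993), and Kcnab1, a β subunit of voltage-gated potassium channels (0.965). Spry2 had Nr4a3, an orphan nuclear receptor (0.986), and Dipk2a (0.985), and Spry4 had Poldip3 (0.977) and Psmc2, a proteasome ATPase (0.977). For Spred1 they were Myh9, a non-muscle myosin heavy chain (0.967), and Tlk2, a nuclear kinase (0.940). Rgs2 had Ifrd1 (0.993) and Chgb, a protein of secretory granules (0.993), and Rgs4 had Slc16a7, a monocarboxylate transporter (0.950), and Swap70 (0.936). Without the 2 arrays farthest from the member's median these r lay between 0.88 and 0.98. Without subtracting the number means, r fell to 0.01 for Rasl11b, -0.04 for Myh9, 0.27 for Stk39 and 0.49 for Mtus1. For the others it lay between 0.60 and 0.99. These genes were picked for the highest r among the tested probe sets with 1 symbol (19477 in all), so a high r is a result of the search.

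The other genes of the pathway were read from 7 lists, in each of which 0 genes passed the adjusted threshold in any comparison with eGFP, with or without the block. Of the transcripts known to be induced through ERK, 16 of 18 were tested. Their median difference was 1.04 with β4a (16 of 16 above 0), 0.62 with β4b (15 of 16) and -0.02 with β4e (7 of 16), the same order as the members. This list was chosen with earlier results of these data known, and its genes were read from the same arrays as the members. The shared order is therefore a description and not separate evidence. With the block, 7 of the 16 had limma's unadjusted p under 0.05 and were higher with β4a (8.21% of all probe sets were) and 2 with β4b (11.6%). Without the block these counts were 2 (1.21%) and 0 (2.17%). Ier3, an early response gene that limits apoptosis, differed by 0.95, 1.08 and 0.70 with β4a, β4b and β4e (p for the mean of the variants 0.0134, adjusted p 0.184, with the block), and Ccnd1, cyclin D1, by 0.30, 0.38 and 0.25 (p 0.0441, adjusted p 0.273).

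The relatives of the members had smaller medians than the members. Of the other MAP kinase phosphatases 8 of 9 were tested, with medians of 0.26, 0.07 and -0.01 for β4a, β4b and β4e. Dusp16, a phosphatase of JNK and p38, differed by 0.53, 0.26 and 0.25 (adjusted p for the mean of the variants 0.252 with the block), and Dusp10 by 0.21, 0.26 and 0.14 (0.521). Single relatives reached the size of the members: Dusp5 differed by 0.72, 0.43 and -0.16 and Dusp14 by 0.83, -0.11 and -0.25. Both were high in β4a replicate 1, at 12.84 and 8.95 against 11.08 and 6.44 in eGFP replicate 1. A high β4a replicate 1 was thus not particular to the members. The 4 other Sprouty and Spred genes had medians of 0.26, 0.11 and -0.0017, with Spry1 at 0.19, 0.30 and 0.12 (0.246) and Spry3 at 0.35, 0.15 and 0.03 (0.584). Of the other RGS genes and Rgs7bp, 12 of 17 were tested, with medians of -0.04, -0.05 and 0.01. Rgs20, which acts on Gz, differed by 0.45, 0.71 and 0.24 (0.165), and Rgs7bp, the membrane anchor of the R7 family, by -0.33, -0.25 and 0.03 (0.389). Rgs20 lay below 4 in eGFP replicates 2 and 3 (3.67 and 3.64), β4a replicate 3 (3.95) and β4e replicate 3 (3.59). Spry1 lay between 4.21 and 4.77 in all arrays. Both are close to background, so their differences are not exact.

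Upstream, 7 of 10 growth factor receptors were tested, with medians of 0.02, -0.06 and -0.02. The FGF receptor gene Fgfr1 differed by 0.81, 0.77 and 0.53 (adjusted p for the mean of the variants 0.164 with the block) and Ntrk2, the receptor of BDNF, by -0.30, -0.30 and -0.10 (0.253). Of the genes from Ras to ERK, 21 of 30 had a probe set with that symbol alone and 18 were tested, with medians of 0.07, 0.08 and 0.01. Rasgrp1, an exchange factor that loads Ras in response to calcium and diacylglycerol, stood at 6.28, 9.88 and 8.62 with eGFP and 7.86, 11.06 and 9.97 with β4a. It differed by 1.37, 1.25 and 0.61 with β4a, β4b and β4e (0.151), and Rras by 0.35, 0.55 and 0.41 (0.260). Of the G-protein subunits and phospholipase C β genes 19 of 22 were tested, with medians of 0.0040, -0.04 and 0.09. Gnb4, a β subunit, differed by 0.53, 0.79 and 0.37 (0.139), and Plcb1, the effector of Gq, by -0.47, -0.28 and -0.25 (0.276).

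**Figure D4:**
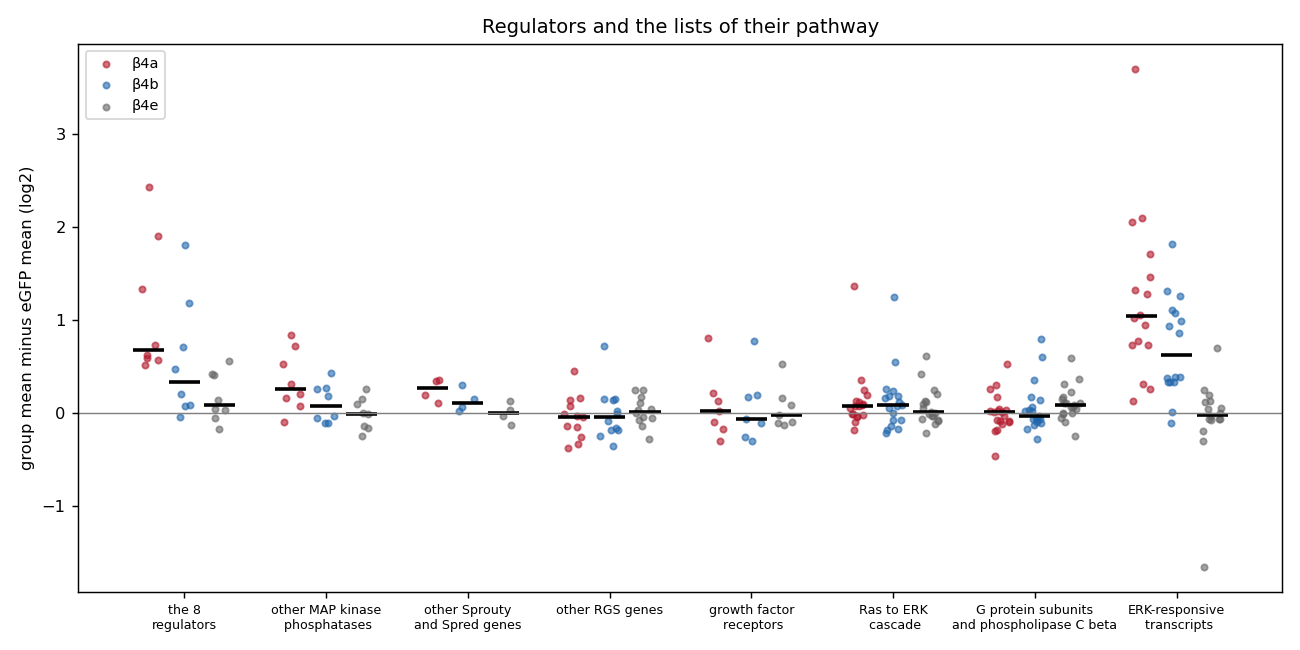
Differences of group means from eGFP (log2, y axis) for the leading probe set of each tested gene, for the 8 regulators and 7 lists of their pathway (x axis), coloured by variant; black bars are medians. The regulators and the ERK-responsive transcripts have medians of 0.68 and 1.04 with β4a and of 0.09 and -0.02 with β4e, and the medians of the other 6 lists lie between -0.06 and 0.26.

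Marker and quality values are given here beside the members' differences. All 8 astrocyte markers were above eGFP on average with each variant, by a median of 0.58 with β4a, 0.87 with β4b and 0.63 with β4e, and 0 passed the adjusted threshold. Their summed level was 13.26 to 14.04 in the eGFP arrays, 13.70 to 14.55 with β4a, 13.79 to 14.87 with β4b and 13.90 to 13.98 with β4e. By number these astrocyte levels are given for β4a only. In replicate 1 the summed astrocyte level was 14.04 with eGFP and 13.77 with β4a, where Dusp1, Dusp4, Dusp6 and Spred1 differed by 3.15, 4.29, 1.48 and 1.11. Spry2, Spry4, Rgs2 and Rgs4 differed there by 1.75, 1.84, 2.32 and 0.90. In replicate 2 the astrocyte level was 13.26 and 13.70, where the first 4 genes differed by 4.21, 1.37, 1.75 and -0.10. The last 4 differed by -0.12, 0.16, -0.15 and 0.82. In replicate 3 the astrocyte level was 13.33 and 14.55, where the first 4 differed by -0.06, 0.05, 0.78 and 0.86. The last 4 differed by 0.08, -0.45, 0.02 and 0.04. The 10 granule cell markers had a summed level of 16.59 to 16.62 with eGFP, 16.49 to 16.56 with β4a, 16.47 to 16.60 with β4b and 16.51 to 16.65 with β4e. All β4a arrays thus lay slightly below all eGFP arrays. With β4a, β4b and β4e 2, 3 and 5 of the 10 were above eGFP, with medians of -0.09, -0.05 and -0.03, and 0 passed the adjusted threshold. All 7 endothelial and pericyte markers failed the filter. The tested oligodendrocyte (7 of 8), microglial (5 of 7), fibroblast (5 of 5) and Purkinje cell and interneuron markers (5 of 6) had β4a medians of 0.25, -0.16, 0.09 and -0.11 and 0 adjusted calls. In replicate 1 their summed levels were 14.56, 9.98, 8.74 and 13.63 with eGFP and 14.62, 9.36, 9.18 and 13.76 with β4a. The fibroblast sum of that number was 9.59 with β4b and 9.89 with β4e. With eGFP and β4a it was 7.83 and 7.60 in replicate 2 and 6.73 and 7.15 in replicate 3. The Gapdh 3′ minus 5′ difference with eGFP, β4a, β4b and β4e was 0.39, 0.22, 0.094 and 0.40 in replicate 1. It was 0.12, 0.082, 0.10 and 0.050 in replicate 2 and 0.029, -0.053, 0.066 and 0.0046 in replicate 3. The part of these in the members' differences was not tested.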

How the data were processed

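RNA from 12 granule cell cultures (4 groups of 3) was amplified from 500 ng, biotin-labelled and hybridised to Affymetrix mouse 3′ arrays. The deposited values are log2 intensities summarised per probe set with GCRMA, per the submitters' processing notes; its version is not given in the sources used here. They ran from 1.27 to 15.0 and were used as deposited.

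The 64 AFFX control probe sets were left out. A probe set was tested where it was above 4 (log2) in at least 3 of the 12 arrays, which left 23044. In the annotation 34945 probe sets had 1 gene symbol, 932 had several and 9160 had no symbol. All 12 arrays were fitted with limma 3.58.1 in R 4.3.3, with 1 coefficient per group (8 residual degrees of freedom), two-sided tests and Benjamini-Hochberg adjustment over all tested probe sets of a contrast at 0.05. The scripts were tested on simulated data. The precision is limited by 3 arrays a group.

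The replicate numbers paired the arrays. The 18 pairs of arrays that shared a number had correlated deviations from their group means (r 0.699 to 0.884), and other pairs reached at most 0.146. Values from a fit blocked on the number (6 residual degrees of freedom) are therefore given beside those without it. Other alternatives were a random block, other filters, normalizations, variance models and probe sets, only the groups compared, and leaving out each array.

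Of each pathway list, the 2 tested genes with the smallest blocked p for the mean of the variants were named, and the 2 genes most correlated with each member. Dusp5 and Dusp14 were named in addition, for the size of their β4a differences. The members, the lists and the rules were chosen with earlier results of these data known.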

Additional observations from a re-analysis of the deposited data

How the results depend on the processing

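The counts of members past the adjusted threshold stayed at 0 in all 7 contrasts under each alternative run, those with 1 array left out included. With the replicate number as a block (paired analysis), each member's difference was the same, since the design is balanced, and its standard error smaller; it changed no call of a member. Under the block the numbers of probe sets called over the array were 3 for β4a, 3 for β4b, 0 for β4e and 5 for the mean of the variants. With 1 array left out, with or without the block, they ran from 0 to 2 for β4a, from 0 to 61 for β4b (61 without eGFP replicate 1, with the block), stayed at 0 for β4e and ran from 0 to 3 for the mean. Leaving out 1 array, the count of members that differed by replicate number ran from 2 to 8, against 6.

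Among the alternatives that left out no array, 2 values turned sign. Ntrk2 for the mean of the variants was 0.000866 when all its probe sets were averaged, and the r of Myh9 with Spred1 was -0.044 without subtracting number means. The r of 2 pairs of members turned negative without 2 arrays, as given above. The cause was not tested.

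With 1 array left out, with or without the block, some differences took either sign; fewer arrays are then behind a value. For β4a these were Spry4 (-0.43 to 1.04) and Rgs2 (-0.085 to 1.38). For β4b they were Spry2 (-0.18 to 0.51), Spry4 (-0.40 to 0.53), Rgs2 (-0.52 to 0.55) and Spred1 (-0.39 to 0.45). For β4e they were Dusp1 (-0.39 to 1.30), Dusp4 (-0.51 to 0.75), Dusp6 (-0.071 to 0.75), Spry2 (-0.43 to 0.39), Spry4 (-0.34 to 0.63), Rgs2 (-0.68 to 0.43) and Spred1 (-0.44 to 0.41). For the mean of the variants they were Spry2 (-0.053 to 0.64), Spry4 (-0.064 to 0.53), Spred1 (-0.23 to 0.61), Rgs2 (-0.14 to 0.77), Dusp10 (-0.041 to 0.43), Ntrk2 (-0.61 to 0.11) and Ier3 (-0.063 to 1.75). Between variants they were Dusp1 (-0.59 to 1.80) and Dusp6 (-0.13 to 0.52) for β4a over β4b, and Dusp4 (-0.28 to 0.98) for β4b over β4e.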
